A study of Arabidopsis thaliana with 18 samples.

Results

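The response of WS roots to forward tilt was set against the response of Col-0 roots to the same tilt. The quantity is an interaction, the log2 change of a transcript in WS minus its log2 change in Col-0, and a positive value means a higher change in WS. It uses 12 of the 18 Affymetrix ATH1 arrays of the series, 3 in each of 4 groups, and was computed for 22746 probe sets. WS (Wassilewskija) and Col-0 (Columbia) are wild type ecotypes of Arabidopsis thaliana, and no group carried a transgene or mutation. The groups were WS vertical, WS slanted forward, Col-0 vertical and Col-0 slanted forward. All seedlings were 8 days old, grew under continuous light on the surface of Phytagel plates, and differed in the angle of the growth plate (Agp). Vertical plates stayed at Agp 90° throughout, and forward plates stood at Agp 90° for 3 days and at Agp 135° for 5 days. The other 6 arrays held both ecotypes slanted backward (Agp 45°). Each array carried RNA from 5 dissected roots, and the labels do not say whether the arrays of a group came from separate plates, which leaves the p-values to reflect array-to-array spread alone. In whole roots, fewer cells of a type and less RNA per cell cannot be told apart.

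Skewing is a lasting sideways slant of a root that grows along a surface, and waving is a regular swing about its path. Proteins known from mutants with altered skewing include the SPIRAL1 family and tubulins, which act on cortical microtubules, and SKU5, a glycoprotein at the cell surface. WS is known for strong skewing and Col-0 for weak skewing, and the question behind this comparison is which transcripts answer to the tilt in one ecotype and not in the other. Roots in light also depend on sugar sent down from the shoot, which SWEET proteins carry across membranes, and a known set of genes is induced when sugar runs short or plants are kept dark.

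No probe set passed the test of the interaction after adjustment over all probe sets (limma, smallest adjusted p = 0.379, shared by 12 probe sets), and 1562 had an unadjusted p under 0.05 (6.87%), 692 higher (3.04%) and 870 lower (3.82%). A transcript is called altered here by the thresholds of the study, a log2 value over 1 in size with an unadjusted p under 0.05. By that rule 46 probe sets were altered (0.202%), 31 with a higher change in WS (0.136%) and 15 with a lower one (0.0659%). On the deposited scale with no further normalization there were 52, of which 41 were higher and 11 lower. The median standard error of an interaction was 0.194, which gives a 95% interval of ± 0.41. For a typical probe set, an estimated difference smaller than this could not reach an unadjusted p under 0.05. The adjusted test required a larger one. A further 7 probe sets had an interaction over 1 in size and missed the p threshold.

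**Figure D1:**
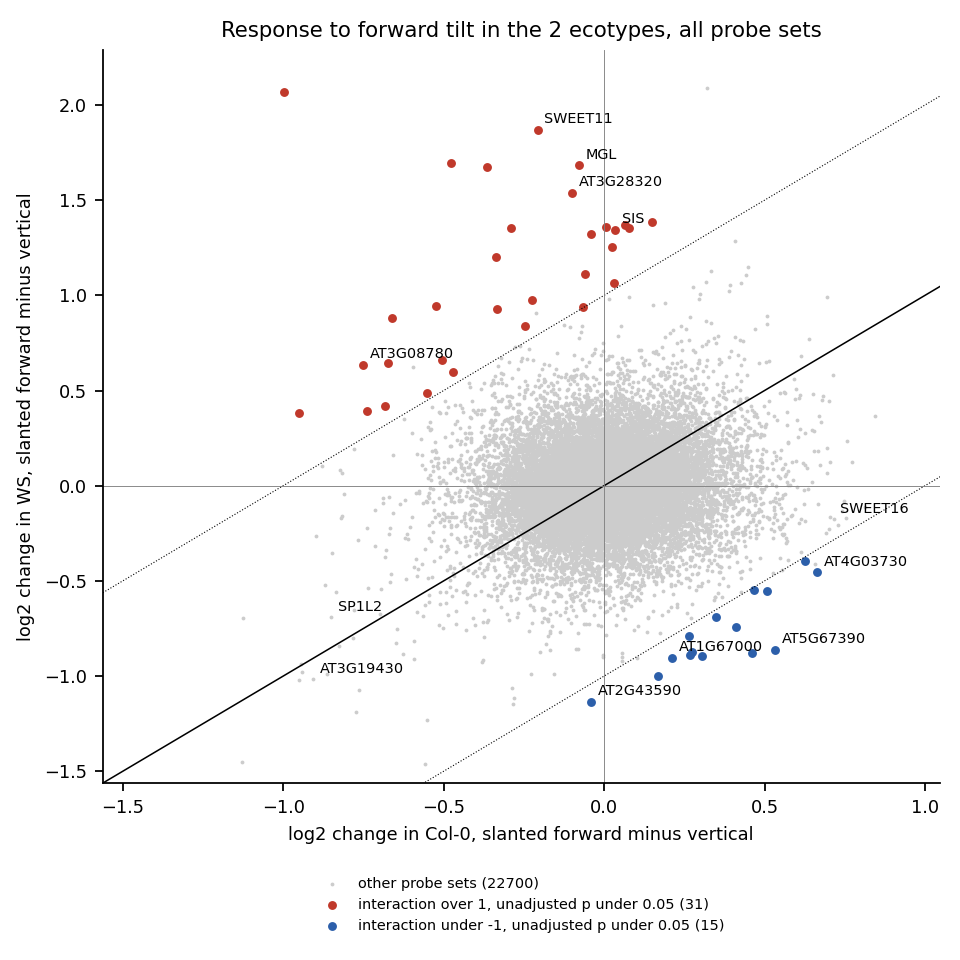
Each point is 1 of 22746 probe sets, with its log2 change from vertical to slanted forward in Col-0 on the x axis and in WS on the y axis. Points on the solid line moved equally, the dotted lines mark an interaction of 1 and -1, and the 31 red and 15 blue probe sets are those called altered, most of them far from 0 on the WS axis and nearer to 0 on the Col-0 axis.

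The estimated changes of WS and Col-0 were only weakly correlated over all probe sets. Pearson's r between them was 0.134 and Spearman's rho was 0.121, given as a description across probe sets that are not independent replicates. The changes themselves spread more widely in WS (SD of log2 over probe sets 0.213) than in Col-0 (0.177). The median standard error of a change was 0.137 in each ecotype, so error makes up much of these spreads. Such error lowers a correlation, and the low values do not show that the responses were unrelated. Altered probe sets numbered 39 within WS (0.171%) and 2 within Col-0 (0.00879%). Within WS 12 probe sets passed the adjusted test (0.0528%), 7 higher (0.0308%) and 5 lower (0.022%) under forward tilt, and within Col-0 none did (0%, limma, smallest adjusted p = 0.616, with 1531 or 6.73% at an unadjusted p under 0.05). The WS count depended on single arrays, with 0 left without WS forward replicate 3, WS vertical replicate 2 or WS vertical replicate 3, 2 to 7 without WS forward replicate 1 or 2, WS vertical replicate 1, Col-0 forward replicate 3 or Col-0 vertical replicate 1 or 2, and 29 without Col-0 vertical replicate 3. Passing in one ecotype and not in the other is no test of a difference. Of those 12 probe sets, 10 had an unadjusted interaction p under 0.05 and 6 were also altered in the interaction, and none passed the adjusted test of it.

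The 31 probe sets with a higher change in WS had a median log2 change of 1.11 in WS and of -0.29 in Col-0, and in 24 of them the signs were opposite. The 15 with a lower change had medians of -0.86 in WS and 0.35 in Col-0, with opposite signs in 14. The WS change was the larger in 25 of the 31 and in 13 of the 15. These are descriptions, since the same arrays chose the probe sets. Signals were low for many of them, with a mean under 100 on the linear scale of the deposited values in 14 of the 31 and in 11 of the 15, against array medians of 194.8 to 208.4. The share of all probe sets with a mean under 100 was not counted. A single gene name was given for 32 of the 46, and 14 stay unnamed here, among them the probe set with the highest interaction of all, 3.07 (SE 1.02, adjusted p = 0.64).

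The arrays were alike in scale and in overall profile. The correlation of normalized values was 0.986 to 0.992 between arrays of a group and 0.984 to 0.991 between vertical and forward arrays of an ecotype. The actin probe sets near the 3′ and 5′ ends, whose ratio is known to rise as RNA degrades, gave a ratio that was 6.06 on Col-0 vertical replicate 2 and 6.05 on WS vertical replicate 3, and 3.85 to 4.53 on the other 10 arrays. Both of these arrays are vertical. Without them, the count of altered probe sets was 75, with 34 higher and 41 lower. Leaving out 1 array gave 54 to 98, and the count passed 1.5 times the value from all arrays without Col-0 forward replicate 3 (82), Col-0 vertical replicate 3 (98), WS forward replicate 2 (80) or WS vertical replicate 1 (89).

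SWEET11 and MGL gave the highest interactions among the named genes. SWEET11, a transporter that releases sucrose from cells, had signals of 576, 353 and 444 in WS vertical roots and of 2218, 1599 and 1438 in WS forward roots. In Col-0 it had 438, 815 and 102 in vertical roots and 169, 161 and 860 in forward roots. The WS groups did not overlap, as in 8.09% of all probe sets with the forward arrays higher, whereas the Col-0 arrays were scattered in both groups and overlapped fully. The interaction was 2.08 (SE 0.825, adjusted p = 0.685), and this standard error was 4.25 times the median one. Its call depended on single arrays: the unadjusted p, 0.0233 with all arrays, lay between 0.0507 and 0.075 without Col-0 forward replicate 1 or 2, Col-0 vertical replicate 1 or 2, WS forward replicate 1 or WS vertical replicate 2, with interactions of 1.51 to 1.91.

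MGL, methionine gamma-lyase, which breaks down methionine, had signals of 248, 225 and 198 in WS vertical roots and of 1004, 558 and 870 in WS forward roots. Its Col-0 signals were 467, 1008 and 163 in vertical roots and 231, 578 and 503 in forward roots. As for SWEET11, the WS groups stood apart and the Col-0 groups overlapped, with Col-0 vertical replicate 2 the highest and replicate 3 the lowest of all 6 Col-0 arrays. The interaction of MGL was 1.76 (SE 0.642, adjusted p = 0.675). It was 1.19 without Col-0 vertical replicate 2 and 2.39 without replicate 3. GAT1_2.1, a glutamine amidotransferase-like gene, had 307, 255 and 167 in WS vertical and 873, 510 and 661 in WS forward roots. In Col-0 it had 641, 731 and 379 in vertical and 372, 792 and 834.5 in forward roots, so that WS forward roots came up to levels that Col-0 showed at either angle. Its interaction was 1.23 (SE 0.437, adjusted p = 0.653), and 0.87 without Col-0 forward replicate 1. A second, dim probe set of the same gene had -0.08 (SE 0.233). AT4G27450 had an interaction of 1.26 (SE 0.394, adjusted p = 0.605), and 0.89 without Col-0 forward replicate 1. Without both arrays of high actin ratio the interactions of SWEET11, MGL and GAT1_2.1 were 1.52, 1.14 and 0.87, and none of them was altered. In all, 9 of the 29 altered genes named by rule lost the call in this setting. The others were AT1G19530 (0.90), AT1G15330 (0.95), CYP71B35 (0.92), AT1G32970 (-0.91), AT4G03730 (-0.92) and AT2G43590 (-0.64).

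The list of genes induced by sugar starvation and darkness was written from general knowledge, with earlier results of these data known. It held 33 genes, of which 12 had a probe set with a name (13 probe sets). An unadjusted interaction p under 0.05 was found for 4 of the 13 with a higher change in WS (3.04% of all probe sets). None had a lower change at that threshold (3.82%), and 3 were altered, all higher (0.136%). None passed the adjusted test. The 3 altered members, MGL, AT4G27450 and GAT1_2.1, are also among the genes listed as named by the study at Agp 135°. The count is therefore not independent evidence. The median interaction was 0.34, against 0.0054 over all probe sets. The fourth was MCCB, a subunit of the methylcrotonyl-CoA carboxylase of leucine breakdown, at 0.41 (SE 0.143). MCCA, the other subunit, had 0.39 (95% interval -0.13 to 0.92), and IVD, isovaleryl-CoA dehydrogenase of the same pathway, had 0.51 (-0.04 to 1.06). The remaining members lay between -0.10 and 0.34. Within WS, 8 of the 13 had an unadjusted p under 0.05, all higher under forward tilt (5.15% of all probe sets).

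The level of this list varied from array to array, in Col-0 above all. The mean normalized log2 level of the 13 probe sets was 9.32, 9.21 and 9.15 on the WS vertical arrays and 9.94, 9.67 and 9.71 on the WS forward arrays. On the Col-0 vertical arrays it was 9.51, 9.79 and 9.14, and on the Col-0 forward arrays 9.23, 9.78 and 9.74. The 3 Col-0 arrays at one angle thus lay as far apart as the WS groups did from each other. Col-0 vertical replicate 2, an array with a high actin ratio, gave the highest of the 3 vertical values for 12 of the 13 probe sets (35.1% of all probe sets), and replicate 3 the lowest for 10 (32.7%). Without both arrays of high actin ratio, the median of the list was 0.15 and 1 member had an unadjusted p under 0.05. Leaving out any 1 array gave medians of 0.14 (without Col-0 forward replicate 1) to 0.46, with 4 to 7 such members. It was 0.18 without Col-0 vertical replicate 2. Markers of green shoot tissue, of which 5 of 27 had a named probe set, had a median interaction of -0.03. None had an unadjusted p under 0.05 (6.87% of all probe sets). Their summed signal was 1931 to 3497 on the Col-0 vertical arrays and 1695 to 2883 on the Col-0 forward arrays, and was highest on Col-0 vertical replicate 2 and lowest on Col-0 forward replicate 1. It was 1884 to 2907 on the WS vertical and 1921 to 2337 on the WS forward arrays. The part of RNA quality or of shoot tissue in the interaction was not tested.

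**Figure D2:**
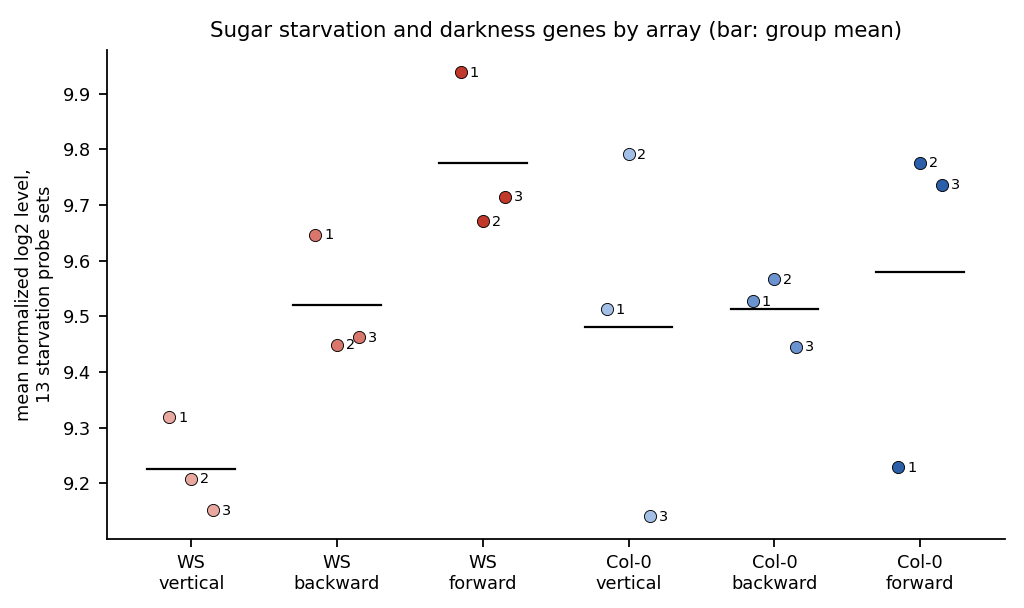
Mean normalized log2 level of the 13 probe sets of the sugar starvation and darkness list on each of the 18 arrays, by group, with replicate numbers beside the points and the group mean as a bar. The WS vertical arrays (9.15 to 9.32) lie below the WS forward arrays (9.67 to 9.94), while Col-0 vertical arrays range from 9.14 to 9.79.

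Of 37 listed genes of sugar transport and cleavage, 11 had a named probe set, and 7 of the 11 interactions were positive with a median of 0.15. An unadjusted p under 0.05 was found for 2 with a higher change in WS (3.04% of all probe sets) and 1 with a lower one (3.82%). SWEET3 had signals of 137, 93.2 and 146 in WS vertical and 338, 155 and 213 in WS forward roots. These did not overlap, as in 8.09% of all probe sets with the forward arrays higher. Its signals were 21.1 to 67.8 over both Col-0 groups (interaction 0.55, 95% interval -0.22 to 1.31). SWEET13, a close relative of SWEET11, had an interaction of 0.57 (SE 0.241, adjusted p = 0.686), with signals of 217, 137 and 150 in Col-0 vertical and 134, 104 and 112 in Col-0 forward roots and similar WS groups (181 to 229 and 214 to 253). SWEET16, which sits in the vacuolar membrane, had an interaction in the other direction, -0.89 (SE 0.271, adjusted p = 0.568). Its signals were 1057, 832 and 962 in WS vertical and 808, 903 and 785 in WS forward roots, against 1190, 1054 and 601 in Col-0 vertical and 1285, 1531 and 1757 in Col-0 forward roots. Here the Col-0 groups stood apart, as in 5.71% of all probe sets with the forward arrays higher, and the WS groups overlapped. SWEET17, also of the vacuolar membrane, had -0.23 (95% interval -0.88 to 0.41).

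Several altered genes kept the call whichever array was left out. AT3G28320, which encodes an AT14A-like protein of unknown role (domain DUF677), had signals of 196, 184 and 130 in WS vertical roots and of 528, 684 and 458 in WS forward roots. In Col-0 it stayed at 24.9, 31.5 and 17.83 in vertical and 3.798, 46.3 and 20.9 in forward roots. The gene rose in WS (log2 1.54, SE 0.245, adjusted p = 0.0371), the Col-0 change was -0.10, and the interaction was 1.64 (SE 0.347, adjusted p = 0.381). AT3G28310 of the same family had an interaction of 1.64 (SE 0.347, adjusted p = 0.381) on dim signals, with 3.24 to 18 in WS vertical roots, 54.1 to 84.4 in WS forward roots and no more than 13.7 in Col-0. The other 2 members with a named probe set, AT3G28270 and AT3G28280, had mean signals of 9.26 and 1.73 and interactions of -0.06 and -0.02. Whether the probes of this family tell its members apart is not stated in the sources used here.

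AT5G26260, a TRAF-like family gene, was lower in WS than in Col-0 at both angles, by less under forward tilt. Its signals were 386, 381 and 206 in WS vertical roots and 691, 1003 and 822 in WS forward roots, and the gene rose in WS (log2 1.32, SE 0.208, adjusted p = 0.0371). All 6 Col-0 arrays were higher, at 2085, 1445 and 1464 in vertical and 1750, 1360 and 1683 in forward roots, and overlapped between the angles. The interaction was 1.36 (SE 0.295, adjusted p = 0.385). AT1G15330, a CBS domain gene, had nearly equal levels in vertical roots of both ecotypes (WS 80.4 to 94.1, Col-0 63.2 to 122) and 222, 180 and 213 in WS forward roots, against 49.5, 77.4 and 76.6 in Col-0. It rose in WS (log2 0.98, SE 0.162, adjusted p = 0.0404), and its interaction of 1.20 (SE 0.229) was among those with the smallest adjusted p, 0.379. Without Col-0 vertical replicate 2 it was 0.99, just under the threshold of size.

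AT2G37870, of the lipid transfer protein family, was higher in WS already in vertical roots and more so in forward roots. WS had 1243, 744 and 932 in vertical and 1861, 1437 and 2398 in forward roots, and Col-0 had 215, 385 and 186 in vertical and 151, 214 and 133 in forward roots. The interaction was 1.47 (SE 0.36, adjusted p = 0.488). SIS, a serine-rich gene induced by salt, had 175, 141 and 103 in WS vertical, 586, 230 and 453 in WS forward, 182, 178 and 85.6 in Col-0 vertical and 91.0, 177 and 185 in Col-0 forward roots. All 3 WS forward arrays were above the other 9, and the interaction was 1.31 (SE 0.415, adjusted p = 0.615). WS forward arrays lay above the WS vertical arrays in 8.09% of all probe sets, and the share above all other 9 was not counted. AT1G21520 behaved likewise at lower signals, with 5.34 to 35.2 in WS vertical and 71.1 to 115 in WS forward roots against 5.02 to 36.9 over both Col-0 groups (interaction 1.302, SE 0.345, adjusted p = 0.568).

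**Figure D3:**
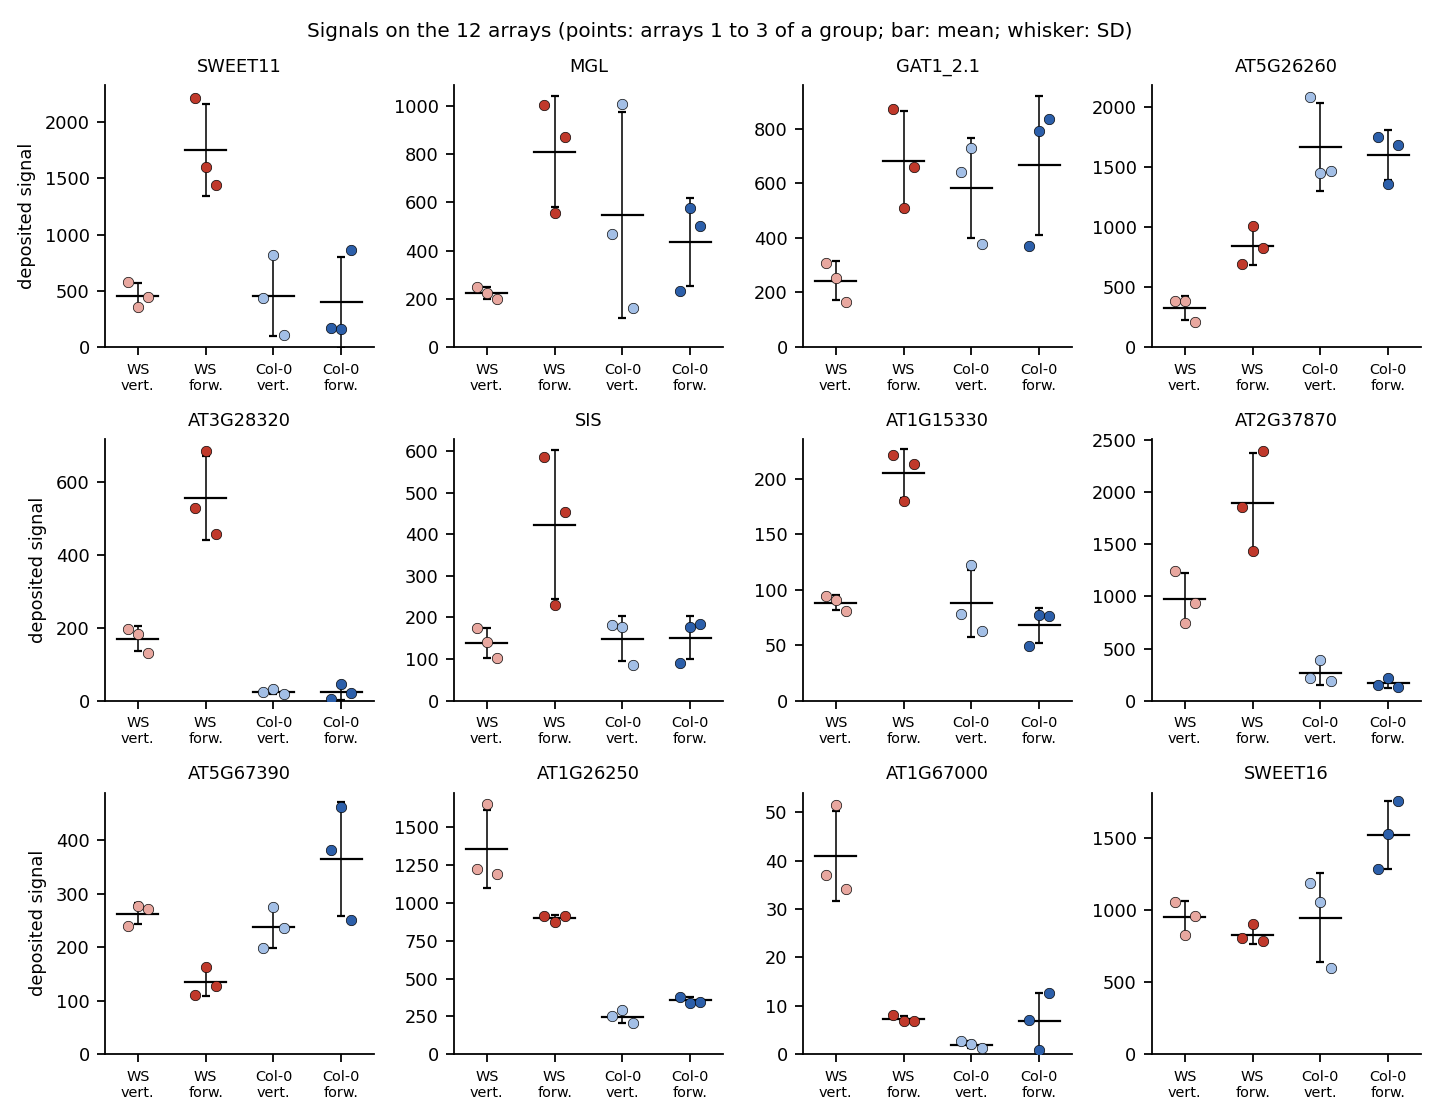
Deposited linear signals of 12 genes on the 12 arrays, with the 3 arrays of each group as points, the mean as a bar and the SD as a whisker. SWEET11, MGL and GAT1_2.1 have widely scattered Col-0 arrays, whereas AT5G26260, AT3G28320, AT1G15330 and AT2G37870 have tighter groups, and the lower row shows genes with a negative interaction.

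The study named 11 highly probable skew gene candidates (HPSGC), which it chose on these samples partly by the change in WS at Agp 135°. It also required a difference between the ecotypes under tilt that was not called in vertical roots. Both criteria together come close to the interaction itself. Neither the direction nor the unadjusted p of these genes is therefore independent evidence here. A named probe set was present for 5, and all 5 had an unadjusted interaction p under 0.05 with a higher change in WS (3.04% of all probe sets). SWEET11, AT3G28310 and SIS are described above. AT5G66780 had 94.4, 76.5 and 29.5 in WS vertical and 181, 119 and 277 in WS forward roots, with 31.1 to 38.9 in Col-0 vertical and 3.96 to 42.5 in Col-0 forward roots (interaction 1.54, SE 0.44, adjusted p = 0.568). AT2G25150, an acyltransferase gene of the BAHD family, rose in WS from 52.6, 37.8 and 49.9 to 121, 124 and 146 (log2 1.04, SE 0.153, adjusted p = 0.0371). Its Col-0 signals were 36.5 to 81.7 in vertical and 64.4 to 101 in forward roots, with a change of 0.28 in the same direction, and the interaction was 0.77 (SE 0.217, adjusted p = 0.568).

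The change in Col-0 was the larger one in size in AT3G08780, AT3G11110, CYP71B35 and PRX52. It was also the larger in further genes, such as SWEET16, AT2G16380 and AT4G03730. AT3G08780 had 367, 439 and 346 in Col-0 vertical and 297, 254 and 124 in Col-0 forward roots, while WS had 172, 297 and 200 in vertical and 441, 371 and 284 in forward roots. The Col-0 groups stood apart, as in 6.07% of all probe sets with the forward arrays lower, the WS groups overlapped, and the interaction was 1.39 (SE 0.408, adjusted p = 0.568). AT3G11110, a RING finger gene, and CYP71B35, a cytochrome P450, followed the same course at signals under 70, with Col-0 changes of -0.67 and -0.74, WS changes of 0.65 and 0.39, and interactions of 1.32 (SE 0.367) and 1.13 (SE 0.345). CYP71B35 was below the threshold of size without Col-0 vertical replicate 2 (0.88) or WS forward replicate 2 (0.92). PRX52, a class III peroxidase of lignin formation, had a Col-0 change of -0.82 and a WS change of 0.08 on signals of at most 52.2 (interaction 0.90, SE 0.39, adjusted p = 0.69). AT1G19530 differed from these, with a change of 0.88 in WS and of -0.66 in Col-0. It had 356, 362 and 191 in WS vertical and 703, 516 and 500.2 in WS forward roots, and 493, 879 and 269 in Col-0 vertical and 118, 419 and 503 in Col-0 forward roots, again with Col-0 vertical replicate 2 the highest. Its interaction was 1.54 (SE 0.639, adjusted p = 0.685), and it missed the p threshold without Col-0 forward replicate 1 (0.97), Col-0 vertical replicate 2 (1.15), WS forward replicate 1 (1.39) or WS vertical replicate 3 (1.29).

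Among the genes with a lower change in WS, AT5G67390 had the most negative interaction. Its signals were 240, 277 and 271 in WS vertical and 112, 164 and 128 in WS forward roots, and 199, 275 and 237 in Col-0 vertical and 382, 461 and 251 in Col-0 forward roots. The levels of vertical roots overlapped between the ecotypes, and under forward tilt every WS array was below every Col-0 array. The share of all probe sets with such a split was not counted. The interaction was -1.40 (SE 0.271, adjusted p = 0.379). AT1G26250, which encodes a proline-rich extensin-like cell wall protein, had changes of opposite sign with no overlap between the angles in either ecotype. WS had 1224, 1658 and 1194 in vertical and 912, 875 and 914 in forward roots, and Col-0 had 251, 293 and 204 in vertical and 382, 339 and 348 in forward roots. The interaction was -1.02 (SE 0.21, adjusted p = 0.379), and it was -0.87 to -0.995 without WS vertical replicate 2, Col-0 vertical replicate 3, Col-0 forward replicate 1 or WS forward replicate 2, under the threshold of size. A pattern of this kind, with all WS forward arrays below and all Col-0 forward arrays above their vertical arrays, was seen in 0.356% of all probe sets, and the mirror pattern in 0.303%.

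AT4G28960, chosen after its values were seen, was lower under forward tilt in both ecotypes. Its log2 change was -0.58 in WS (SE 0.0969, adjusted p = 0.0404) and -0.35 in Col-0 (limma, unadjusted p = 0.00234). The interaction was -0.23 (SE 0.137, unadjusted p = 0.114), so it was not altered. AT1G67000, a receptor kinase-like gene, fell in WS (log2 -0.90, SE 0.147, adjusted p = 0.0404) from 37.0, 51.6 and 34.2 to 8.11, 6.83 and 6.82, while all Col-0 signals were 12.6 or lower. Its interaction was -1.11 (SE 0.208, adjusted p = 0.379). Signals near or below 32, the value added before log2, understate the fold change. AT1G36970 ran from 30.6 to 48.6 in WS vertical and 2.502 to 10.97 in WS forward roots, against 2.41 to 27.3 over both Col-0 groups (interaction -1.16, SE 0.232, adjusted p = 0.379, and -0.94 without Col-0 forward replicate 2). PRA1.G1, a prenylated RAB acceptor of membrane traffic, had 50.8 to 76.3 in WS vertical and 15.4 to 22.4 in WS forward roots, and 34.7 to 97.1 over both Col-0 groups (interaction -1.20, SE 0.282, adjusted p = 0.447). In AT1G67000, AT1G36970 and PRA1.G1 the WS groups did not overlap, which was true of 8.17% of all probe sets in this direction.

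AT2G43590, a chitinase family gene with stronger signals, had 555, 853 and 1011 in WS vertical and 322, 259 and 469 in WS forward roots. Its Col-0 signals were scattered at 596, 478 and 1160 in vertical and 928, 577 and 562 in forward roots. The interaction was -1.10 (SE 0.431, adjusted p = 0.685), and its unadjusted p passed 0.05 without any 1 of 4 arrays, Col-0 forward replicate 1 (-0.88), Col-0 vertical replicate 2 (-0.83), WS forward replicate 2 (-0.92) or WS vertical replicate 3 (-0.91). The other 7 named genes of this direction had interactions of -1.02 to -1.15, and each fell short of the threshold of size without at least 1 array. AT5G61550, a U-box kinase, did so without WS forward replicate 3 (-0.91). AT1G49030, a PLAC8 family gene, did so without Col-0 vertical replicate 1 (-0.94) or WS forward replicate 1 (-0.76), and AT4G03730, which RefSeq annotates as a pseudogene, without WS forward replicate 3 (-0.91) or WS vertical replicate 3 (-0.99). AT2G16380, a Sec14-like gene, did so without Col-0 forward replicate 1, Col-0 vertical replicate 3, WS forward replicate 3 or WS vertical replicate 2 (-0.98 to -0.88). AT1G35350, a relative of the phosphate exporter PHO1, did so without Col-0 forward replicate 2, Col-0 vertical replicate 3, WS forward replicate 1 or 2 or WS vertical replicate 2 (-0.95 to -0.80). AT1G32970 did so without Col-0 forward replicate 1, Col-0 vertical replicate 2 or 3 or WS vertical replicate 1 (-0.96 to -0.88), and AT3G11740 without Col-0 forward replicate 1, Col-0 vertical replicate 1, WS forward replicate 2 or WS vertical replicate 3 (-0.99 to -0.89). AT3G13610, which encodes the F6′H1 enzyme of coumarin synthesis, was not altered by size. It had strong, tight signals of 3219, 3260 and 3256 in WS vertical and 2496, 2415 and 2684 in WS forward roots. Its Col-0 signals were 2045, 1710 and 1876 in vertical and 2156, 1940 and 2009 in forward roots, and the interaction was -0.46 (SE 0.161, adjusted p = 0.653). It was the 1 of 4 measured iron deficiency genes with an unadjusted p under 0.05 (3.82% of all probe sets with a lower change in WS).

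The estimated gap between the ecotypes crossed 0 with the tilt in 10 of the 16 altered genes named by rule with a positive interaction and in 11 of the 13 with a negative one. It widened in 5 and 1, and narrowed in 1 and 1. In none of the genes that crossed was the gap past an adjusted p of 0.05 at both angles (limma). In 3 (AT3G08780, AT3G11110 and AT2G16380) it had an unadjusted p under 0.05 at both. For the rest at least 1 of the gaps had an unadjusted p of 0.05 or more. For SWEET11 the WS minus Col-0 gap was 0.38 (SE 0.584) in vertical and 2.45 (SE 0.584, adjusted p = 0.00955) in forward roots. For AT3G28320 it went from 1.79 to 3.43 (SE 0.245 each). AT5G26260 had gaps of -2.25 in vertical and -0.89 in forward roots (SE 0.208 each), and GAT1_2.1 went from -1.12 to 0.11 (SE 0.309 each). AT1G67000 went from 1.06 to -0.06 (SE 0.147 each), which left no detectable gap in forward roots. Gaps with an adjusted p under 0.05 were found for 9 of these 29 genes in vertical roots (13.1% of all probe sets) and 14 in forward roots (13.5%), a description of genes chosen on the same arrays.

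**Figure D4:**
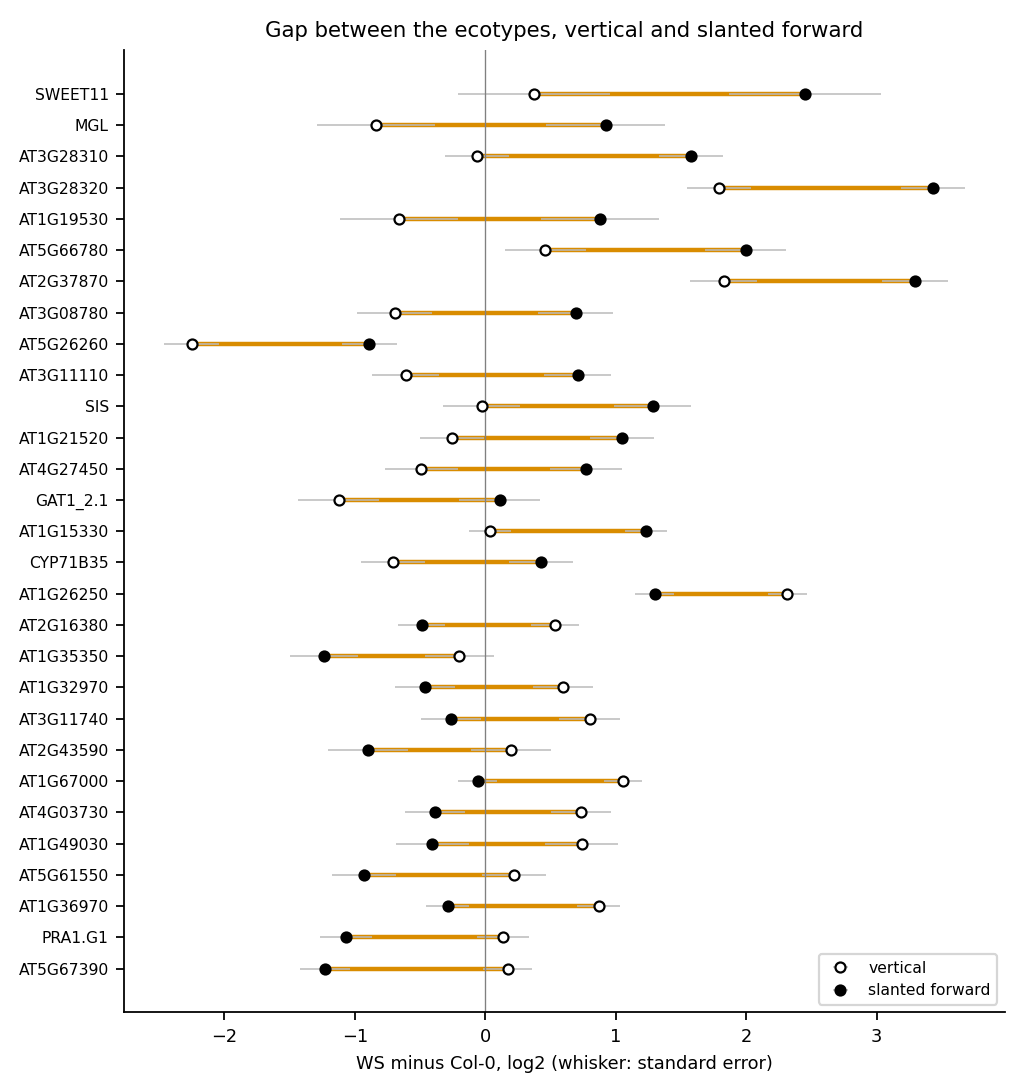
Gap between the ecotypes, WS minus Col-0 in log2 units, for the 29 altered genes named by rule, in vertical roots (open circles) and under forward tilt (filled circles), with standard errors as whiskers and an orange line for the shift. The gap of AT3G28320 and AT2G37870 is wide and grows, that of AT5G26260 and AT1G26250 shrinks, and the estimates of most others cross 0, often with a whisker that reaches it.

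No measured gene known from mutants with altered skewing or waving was altered, against 0.202% of all probe sets. Of 16 listed genes 7 had a named probe set, and none had an unadjusted interaction p under 0.05 (6.87% of all probe sets). The median was -0.04, and with so few members these counts do not set the list apart. SKU5 had 3854 to 4608 in WS vertical, 3931 to 4043 in WS forward, 3619 to 4033 in Col-0 vertical and 3649 to 3917 in Col-0 forward roots. Its interaction was -0.01 (95% interval -0.24 to 0.21). SPR1, the founding SPIRAL1 gene, had -0.24 (-0.49 to 0.02). SP1L2, a SPIRAL1-like gene, had lower signals under forward tilt in both ecotypes, 824, 679 and 916 in WS vertical and 667, 334 and 500 in WS forward roots, and 930, 1093 and 1823 in Col-0 vertical and 666, 729 and 625 in Col-0 forward roots. Its interaction was 0.16 (-0.59 to 0.91), an interval that leaves room for a sizeable difference either way. Among 7 tubulins none had an unadjusted p under 0.05 (6.87% of all probe sets), and the interactions were -0.19 to 0.27.

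**Figure D5:**
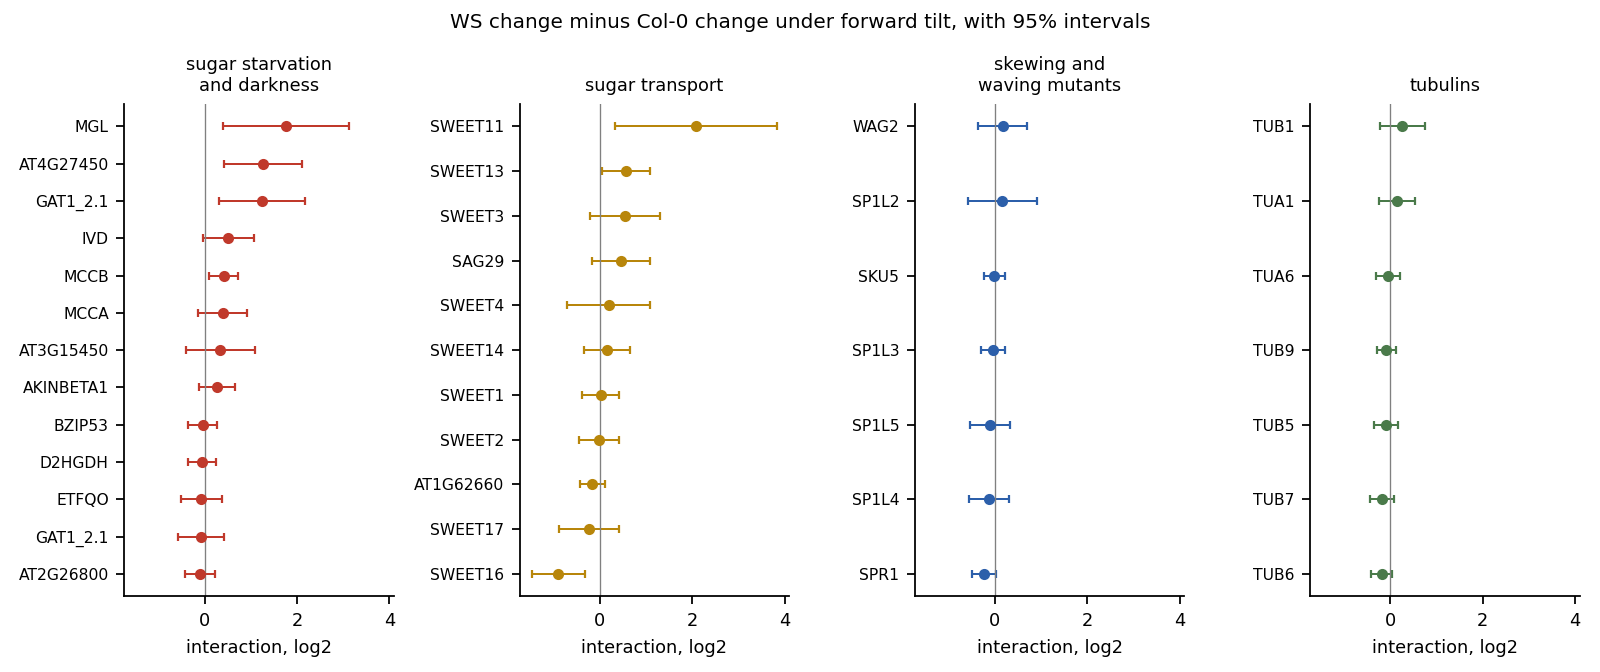
Interaction of each named probe set of 4 lists (x axis, log2, WS change minus Col-0 change) with its 95% interval. MGL, AT4G27450, GAT1_2.1, MCCB, SWEET11 and SWEET13 lie above 0 and SWEET16 below it, while the intervals of all skewing and waving genes and tubulins include 0.

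Of 39 genes listed as named by the study at Agp 135°, 15 had a named probe set (16 probe sets), and 7 of the 16 had an unadjusted interaction p under 0.05, all with a higher change in WS (3.04% of all probe sets). The study named them on these samples, so this is not independent evidence. The seventh beside those described was AT4G25410, with 50.5, 95.5 and 67.8 in WS vertical and 138, 141 and 135 in WS forward roots against 53.0 to 96.6 over both Col-0 groups (interaction 0.55, SE 0.215, adjusted p = 0.685). Interactions that missed the threshold included AT1G09310 at 0.98 (95% interval -0.12 to 2.08), with changes of 0.10 in WS and -0.88 in Col-0, AT5G28520 at 0.60 (-0.22 to 1.43), with 0.82 and 0.21, and AT5G22555 at -0.89 (-1.90 to 0.12), with -0.89 and 0.00. Estimated changes of the same sign were seen in other genes. AT1G52820 had -0.99 in WS and -0.86 in Col-0 (interaction -0.13, -1.49 to 1.23). AT3G19430, related to late embryogenesis abundant proteins, had changes of -1.02 in WS and -0.91 in Col-0 (interaction -0.11, 95% interval -0.88 to 0.66). AT4G12490, a pEARLI1-like lipid transfer gene, had -0.69 and -1.13 (0.43, -0.46 to 1.32), and AT5G44400, a berberine bridge enzyme-like gene, had -1.19 and -0.77 (-0.42, -1.12 to 0.28). In AT3G19430, AT4G12490 and AT5G44400 the forward arrays lay below the vertical arrays in each ecotype. Such a separation was seen in 8.17% of all probe sets in WS and in 6.07% in Col-0. The share with both was not counted. For HIS1-3, a histone H1 variant induced by drought, the WS signals were 276, 206 and 123 in vertical and 530, 384 and 364 in forward roots. The Col-0 signals were 288, 770 and 101 in vertical and 263, 286 and 637 in forward roots, and the interaction of 0.71 (-0.69 to 2.11) was too imprecise to separate the ecotypes.

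The remaining families are given by their members at an unadjusted interaction p under 0.05, which was reached by 6.87% of all probe sets, and with so few members no family is set apart by its count. There were none among 7 dehydration and abscisic acid genes, 7 auxin genes, 11 tau glutathione transferases, 4 expansin-like genes and 4 jacalin-related lectins, nor among the 6 named probe sets for root hairs, cortex and endodermis, touch and the glyoxylate cycle. Of 10 alpha expansins, which loosen cell walls, EXPA20 had 0.44 (SE 0.156) and EXPA15 had -0.36 (SE 0.145). XTH32 was the 1 of 9 xyloglucan endotransglucosylase/hydrolases, at -0.32 (SE 0.15). Of 20 beta-glucosidases BGLU36 (0.86, on signals under 30) and BGLU25 (0.38) had a higher change in WS. Of 22 cytochromes P450, CYP71B35, described above, had a higher change in WS and CYP71B37 a lower one, at -0.38 (SE 0.177). Of 29 serine carboxypeptidase-like genes 1 had a higher and 3 a lower change, of 6 WRKY factors WRKY53 had 0.48 and WRKY42 had -0.63, and of 6 heat shock genes AT5G37670 had 0.55. The adjusted p was 0.568 or higher for each gene in this paragraph.

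The backward-tilted arrays give a second reference for the forward arrays. With backward in place of vertical as the reference, in a comparison that shares the forward arrays, 54 probe sets were altered (0.237%), 41 higher (0.18%) and 13 lower (0.0572%), and none passed the adjusted test (limma, 1265 or 5.56% at an unadjusted p under 0.05). Of the 29 named genes 6 were altered there too. These were AT3G28320 (1.63, SE 0.347), AT5G66780 (2.06, SE 0.44), AT5G26260 (1.36, SE 0.295), SIS (1.16, SE 0.415), AT1G21520 (1.13, SE 0.345) and AT5G67390 (-1.18, SE 0.271). SWEET11 was not, with 1.32 (SE 0.825), and its WS backward signals were 1844, 1344 and 2505, overlapping those of WS forward roots. MGL had 0.95 (SE 0.642), and its WS backward signals of 467, 313 and 489 lay between those of the other WS groups. CYP71B35 (0.05, SE 0.345) and AT1G36970 (-0.05, SE 0.232) had no detectable difference against backward tilt. The interaction of ecotype with backward tilt gave a similar number of altered probe sets, 47 (0.207%), with 17 higher (0.0747%) and 30 lower (0.132%) in WS and none past the adjusted test (limma, 1672 or 7.35% at an unadjusted p under 0.05). It shares the vertical arrays with the forward interaction, so values are given side by side and not compared: SWEET11 had 0.76 (SE 0.825) for backward and 2.08 (SE 0.825) for forward tilt, AT3G28320 had 0.01 (SE 0.347) and 1.64 (SE 0.347), AT5G26260 had 0.00 (SE 0.295) and 1.36 (SE 0.295), CYP71B35 had 1.08 (SE 0.345) and 1.13 (SE 0.345), and AT1G36970 had -1.10 (SE 0.232) and -1.16 (SE 0.232).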

How the data were processed

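The authors deposited MAS5 signal intensities from Affymetrix Expression Console (version not given in the sources used here) on a linear scale, already scaled between arrays, for 22810 probe sets of 18 arrays. The RMA values that the study tested were not used here. A pseudocount of 32 was added, log2 was taken and arrays were quantile normalized, and 64 control probe sets were left out. A mean for each of 6 groups was fitted to all 18 arrays with limma 3.58.1 in R 4.3.3 (12 degrees of freedom from residuals, 3.45 from the prior). The interaction and the changes within each ecotype were contrasts of that fit, with two-sided moderated p-values to which the Benjamini-Hochberg adjustment was applied across all 22746. Intervals of 95% come from the same fit. The script was tested on simulated data. Precision is limited by how few arrays each group holds.

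Of the probe sets, 13513 had 1 gene in the platform annotation, 503 several and 8730 none given here, and 13436 were matched by gene identifier to RefSeq. No coordinates or sequences are given. Genes were named by rule: the 15 highest and 15 lowest altered interactions, those past an adjusted p of 0.05, list members at an unadjusted p under 0.05, the HPSGC, and genes the study names at Agp 135°. Other list members are named to account for their lists, after their values were seen. Members and lists were chosen with earlier results of these data known. Lists for inositol oxygenases, phosphate starvation, other epidermis, stele, xylem, phloem, root cap and dividing cells had no named probe set. The alternatives were the deposited scale, a pseudocount of 1 or 100, an intensity trend, removal of the 40% dimmest probe sets, only the 12 arrays, a replicate block, each array left out, both arrays of high actin ratio left out, and backward tilt as the reference.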

Additional observations from a re-analysis of the deposited data

How the results depend on the processing

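The number of altered probe sets in the interaction, 46, was 478 with a pseudocount of 1 (47.7% higher in WS), 15 with a pseudocount of 100 (93.3%), 19 without the dimmest probe sets (78.9%), 75 without both arrays of high actin ratio (45.3%) and 54 to 98 with 1 array left out. By the adjusted p it was 0 except for 2 without both arrays of high actin ratio, AT2G21040 (-1.11) and AT2G24140 (-1.46), chosen after their values were seen. In WS, 39 altered probe sets became 490 and 15 with pseudocounts of 1 and 100, 25 without the dimmest and 28 to 64 with 1 array left out. The 12 that passed the adjusted p in WS became 46 with an intensity trend, 2 with only the 12 arrays, 0 and 33 with pseudocounts of 1 and 100, 0 without both arrays of high actin ratio, 34 without the dimmest and 0 to 29 with 1 array left out. In Col-0, 2 altered probe sets became 351 and 1 with pseudocounts of 1 and 100, 11 without both arrays of high actin ratio and 1 to 11 with 1 array left out. The causes were not tested. Of the 29 named altered genes none changed sign in any of these settings, 11 were altered with a pseudocount of 100 and 20 without Col-0 forward replicate 1. AT5G26260, SIS and AT5G67390 were altered in all 21 alternatives and AT3G28320 in the 20 that tested it, with adjusted p between 0.0777 and 0.831.

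Replicate numbers did not pair the arrays: residuals of 45 pairs with the same number had a median correlation of -0.00285 (-0.229 to 0.146), and 5 of 18 arrays were closest to their own number. With a replicate block the counts were 45 for the interaction (0 adjusted), 38 in WS (12 adjusted) and 2 in Col-0 (0 adjusted).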
